A study of Homo sapiens with 6 samples.

Results

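The FAS and TRAIL death receptor genes comprised 8 genes, picked by symbol from a table of 33644 genes: the ligand genes FASLG and TNFSF10, the receptor genes FAS, TNFRSF10A and TNFRSF10B, and FADD, CFLAR and CASP8, which act directly below the receptors. All 8 are in the table and 7 were tested, since FASLG was listed at a mean of 0. Death receptors are cell surface proteins of the TNF receptor superfamily that carry a death domain in the cytoplasm. When FAS ligand or TRAIL (the product of TNFSF10) binds, the receptor recruits the adaptor FADD, which gathers procaspase-8 into a complex where it activates itself and starts a protease cascade. CFLAR encodes c-FLIP, a relative of caspase-8 without its protease activity that limits this step. In T lymphocytes the pathway is known for the removal of activated cells and for killing of target cells that carry the receptors.

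The labels describe alt-LAMA3 KO cells, derived from HEK293T, and unedited HEK293T cells (WT), with 3 samples each at day 0 and no treatment. HEK293T is a human embryonic kidney line transformed with adenovirus DNA and SV40 T antigen, and both lines were grown in DMEM with serum and antibiotics. The labels do not say whether the knockout is 1 clone, how it was edited, or whether samples of a group were separate cultures. The p-values cover only the spread between the libraries compared, which may be technical. Whether those libraries are the labelled samples is not known. What was deposited is 1 comparison of gene expression by RNA sequencing, with a mean over all libraries, a log2 fold change with its standard error and an adjusted p per gene, and no value per sample. Its header names neither group. A positive log2 fold change (written log2 change from here on) therefore means higher in what is called the numerator group than in the denominator group. Which of them is the knockout, if either, is not known.

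The content of the table went against the labels. Of 12 T lymphocyte markers, 10 reached a mean normalized count of 72.0 (5 per 1000000 of the summed means), against 0 of 10 markers of epithelia and HEK293 lines and 0 of 6 markers of myeloid and B cells. In the authors' deposited table the T lymphocyte markers ranged from 1.83 to 27074, with CD4 lowest and CD8A highest, and the markers of epithelia and HEK293 lines from 0 to 3.46, with KRT19, NEFL, NEFM and SALL1 at 0. The T lymphocyte markers also moved in the comparison, with 8 of 10 tested lower in the numerator group and 0 higher. Over all tested genes, 14.8% were lower and 14.7% higher. The share called in either direction rose with the mean, from 23.0% within 2-fold of that of TNFRSF10A to 65.4% around CASP8. The part of these markers in the changes below was not tested. Of the myeloid and B cell markers, CSF1R was higher at a log2 change of 4.20 (SE 0.76, adjusted p = 3.74e-07) and LYZ lower at -6.02 (SE 1.93, adjusted p = 0.00816), per the authors' deposited table, at mean normalized counts of 20.7 and 4.06. The lowest means fell on 9 values, each shared by at least 50 genes as 1 read in 1 library would give, with 3 values linked to higher expression, 3 to lower and 3 to a change of 0. If each is a library, the mean of a gene also covers 3 libraries outside the comparison, and it cannot be turned into a level per group. LAMA3 had a mean normalized count of 18.98 and a log2 change of -0.62 (SE 0.69, adjusted p = 0.578), per the authors' deposited table, which does not check the labels.

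The upstream sequences of both ligand genes are shown first, since one ligand mRNA was abundant and the other was listed at 0. Each run is the 250 bases before the start of transcription in RefSeq (GRCh38.p14), 5′ to 3′ on the strand of the gene. Capitals mark matches to GAAA, any 2 bases and GAAA, on either strand, the core of the element through which interferon-induced factors bind. The TNFSF10 sequence is chr3:172523431-172523680 on the minus strand, and the FASLG sequence is chr1:172658853-172659102 on the plus strand.
TNFSF10: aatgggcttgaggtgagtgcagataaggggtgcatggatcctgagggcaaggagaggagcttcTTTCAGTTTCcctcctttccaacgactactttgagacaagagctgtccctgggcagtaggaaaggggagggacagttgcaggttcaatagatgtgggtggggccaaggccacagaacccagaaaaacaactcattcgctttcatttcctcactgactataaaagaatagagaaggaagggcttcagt
FASLG: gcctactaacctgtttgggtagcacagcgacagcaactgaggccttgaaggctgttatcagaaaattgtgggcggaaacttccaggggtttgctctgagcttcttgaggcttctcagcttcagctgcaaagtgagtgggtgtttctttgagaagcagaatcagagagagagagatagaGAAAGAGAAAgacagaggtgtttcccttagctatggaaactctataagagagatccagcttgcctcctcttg

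The match lay 187 to 178 bases before the start of TNFSF10 and 72 to 63 bases before that of FASLG. Among all 35116 promoters of that length, 3.02% held these letters. Of 13 promoters of 6 of the genes (FASLG, TNFSF10, FAS, FADD, CFLAR and CASP8), only those of both ligand genes did. GGGA, any base and TTTCC, the NF-kB type of site, was in 0 of the 13 promoters on either strand and in 0.527% of all. TTC, any 3 bases and GAA, the STAT type of site, was in 1 of the 13, a promoter of CASP8, and in 6.57% of all. A GC box, GGGCGG on either strand, was in 8 of the 13 and in 42.6% of all, and TATAAA on the gene strand was in 2 of the 13, of CASP8 and TNFSF10, and in 6.80% of all. No match overlapped another motif in the sequences printed. These are letter matches only, and the capital letters stand before the RefSeq start of a gene with a high mean and of one at 0.

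The ligands differed most in level. TNFSF10 (ENSG00000121858, chr3:172505508-172523507, minus strand) had a mean normalized count of 1799 in the authors' deposited table, above 87.8% of the 13957 tested genes. It fell in the numerator group, with a log2 change of -0.36 (SE 0.05, adjusted p = 3.43e-10), per the authors' deposited table. That is 0.781 times the denominator group, with a 95% interval of 0.726 to 0.839. Here as for all genes, fewer cells with the mRNA and less mRNA per cell cannot be told apart. The change was small in size, since 39.5% of genes with a mean of at least 72.0 had one at least as large, and it did not pass a test against a 1.5-fold change (adjusted p = 1.0). FASLG (ENSG00000117560, chr1:172659018-172666874, plus strand) was listed at 0, as were 3147 of the 18522 protein-coding genes of the table, so that it has no fold change. Whether that 0 marks an absent mRNA or reads that were not counted is not known.

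Among the receptors, the genes for both TRAIL receptors moved in opposite directions while FAS did not pass the test. TNFRSF10B encodes DR5 and TNFRSF10A encodes DR4, each of which can signal death on its own when TRAIL binds. TNFRSF10B (ENSG00000120889, chr8:23020133-23069179, minus strand) rose, with a log2 change of 1.14 (SE 0.13, adjusted p = 1.47e-16), per the authors' deposited table. That is 2.21 times the denominator group, with a 95% interval of 1.84 to 2.64. TNFRSF10A (ENSG00000104689, chr8:23190452-23225126, minus strand) fell, with a log2 change of -2.23 (SE 0.33, adjusted p = 1.98e-10), per the authors' deposited table. That is 0.213 times the denominator group, with a 95% interval of 0.136 to 0.333. Both calls held against a 1.5-fold change, at adjusted p = 0.000846 for TNFRSF10B and 2.59e-05 for TNFRSF10A.

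The shift of TNFRSF10A was large beside those of genes that are mostly more abundant. Only 1.05% of genes with a mean of at least 72.0 had a change as large in either direction, against 5.49% for TNFRSF10B. The median mean of that set was 528 and its median error 0.14, against an error of 0.33 for TNFRSF10A. How common so large a change is among genes of similar mean was not tested. TNFRSF10A was also the least abundant of the 7 detected genes, with a mean normalized count of 76.3 in the authors' deposited table, against 333 for TNFRSF10B. Of tested genes with a mean within 2-fold of that of TNFRSF10A, 23.0% passed the threshold, and 34.4% did so around TNFRSF10B. TNFRSF10B and the neighbour RHOBTB2 overlap on opposite strands in 67 exonic bases, 1.30% of those of TNFRSF10B, and RHOBTB2 was at -1.48 (SE 0.29) in the authors' deposited table.

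FAS (ENSG00000026103, chr10:88990582-89015785, plus strand), the receptor of FAS ligand, was abundant, with a mean normalized count of 2417 in the authors' deposited table. Its log2 fold change was -0.08 (SE 0.08, adjusted p = 0.474), per the authors' deposited table. The 95% interval of the ratio ran from 0.851 to 1.05, which leaves room for a small change in either direction. ACTA2, smooth muscle actin, lies across FAS on the other strand, shares 380 exonic bases with it (8.93% of those of FAS) and was at 1.08 (SE 0.09) in the authors' deposited table. Whether the counting used strand is not given in the sources used here, so reads of the shared bases cannot be told apart.

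**Figure D1:**
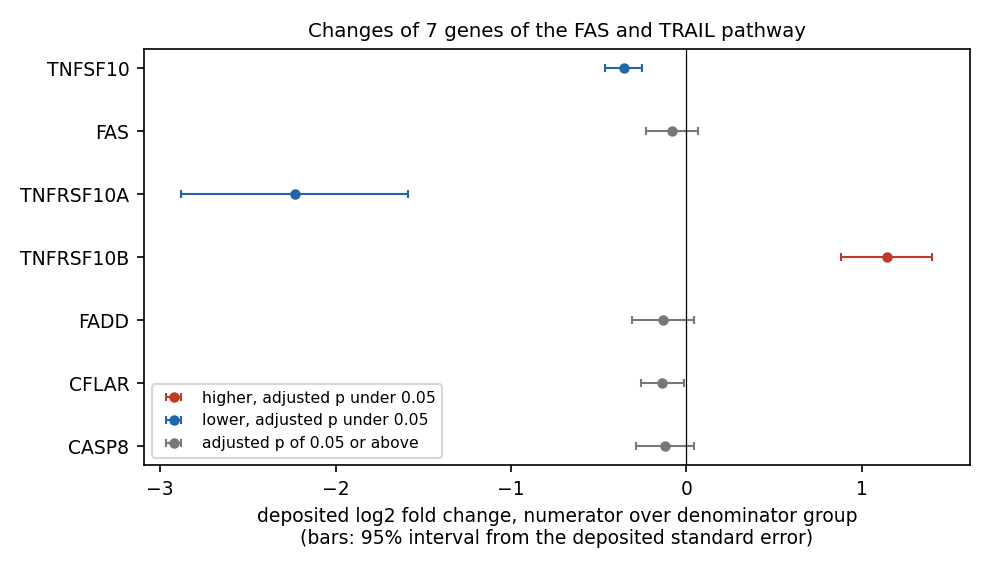
Log2 fold change (horizontal axis, numerator over denominator group) of the 7 tested genes as points, with bars for the 95% interval from the deposited standard error. TNFRSF10B at 1.14 and TNFRSF10A at -2.23 lie on opposite sides of 0, TNFSF10 lies at -0.36, and the other 4 lie between -0.14 and -0.08.

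None of the 3 genes that act below the receptors passed the test in the authors' comparison, and CASP8 and CFLAR had the highest means of the 8 genes before division by length. CASP8 (ENSG00000064012, chr2:201233443-201287711, plus strand), the initiator caspase, had a mean normalized count of 6112 and a log2 change of -0.12 (SE 0.08, adjusted p = 0.298), per the authors' deposited table. CFLAR (ENSG00000003402, chr2:201116104-201176687, plus strand) had a mean normalized count of 4267 and a log2 change of -0.14 (SE 0.06, adjusted p = 0.0844), per the authors' deposited table. FADD (ENSG00000168040, chr11:70203163-70207390, plus strand) had a mean normalized count of 936 and a log2 change of -0.13 (SE 0.09, adjusted p = 0.301), per the authors' deposited table. All of these estimates were slightly below 0. The 95% intervals of the ratio were 0.819 to 1.03 for CASP8, 0.836 to 0.990 for CFLAR and 0.807 to 1.03 for FADD. The interval of CFLAR does not reach 1, and its p was 0.0279 before adjustment in the authors' deposited table, but the call was missed after adjustment over all tested genes.

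Over the 8 genes, 1 was called higher and 2 lower, 4 did not pass and 1 was not tested. Of all tested genes, 29.5% passed the threshold, 14.7% higher and 14.8% lower in the numerator group, so a count of 3 in 7 is not far above the share of all genes and is not read as a result about these genes. The median log2 fold change of the 7 was -0.13, against 0.00 over all tested genes. Among genes of similar mean, calls were common around those that did not pass. Within 2-fold of the mean, 65.4% of tested genes passed around CASP8, 62.9% around CFLAR, 59.1% around FAS and 47.8% around FADD. The standard errors of FAS, CFLAR and FADD were near the median of genes in the same range (0.07, 0.06 and 0.10), while that of CASP8 was above it (0.08 against 0.06).

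**Figure D2:**
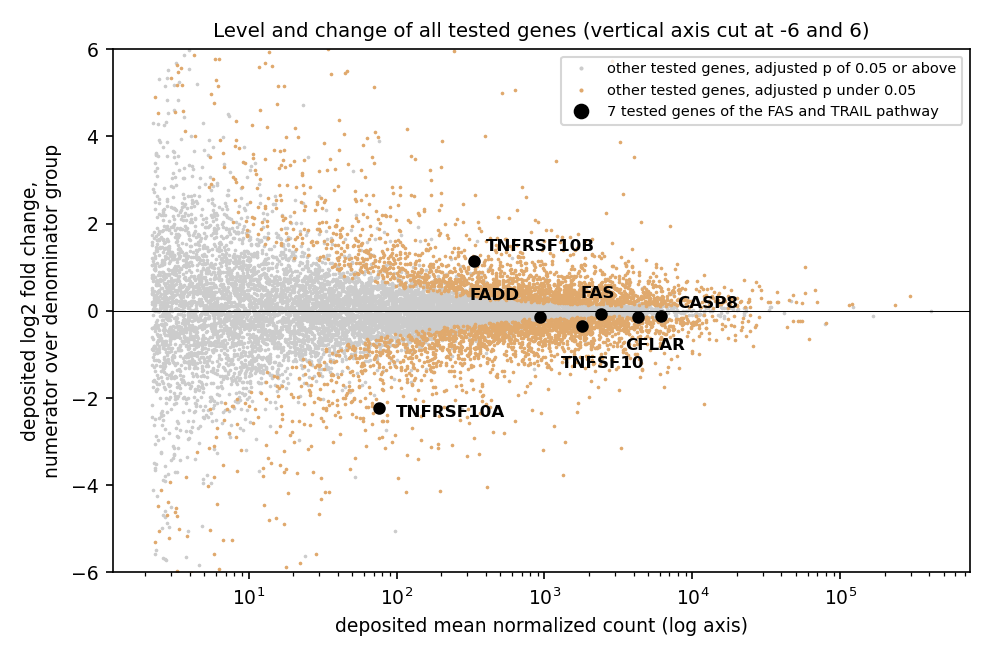
Deposited mean normalized count (horizontal, log axis) and log2 fold change (vertical, numerator over denominator group) of the 13957 tested genes as dots, with the 7 genes in black; 38 genes lie outside the vertical axis, which ends at -6 and 6. TNFRSF10A and TNFRSF10B stand away from 0, whereas FAS, FADD, CFLAR and CASP8 lie in the band of genes with little change.

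Levels were compared between genes per 1000 bases of exon, with all exons of a gene merged (GENCODE 29). Per 1000 bases, the mean normalized count was 844 for CASP8, 568 for FAS, 518 for TNFSF10, 508 for FADD, 189 for CFLAR, 64.5 for TNFRSF10B and 25.9 for TNFRSF10A. FAS, TNFSF10 and FADD were close together, and without values per sample their order has no error. The merged exons of CFLAR span 22529 bases over 25 annotated transcripts, and those of CASP8 span 7243 bases over 20. With the length of the longest coding transcript instead, the values per 1000 bases were 2086 for CASP8, 943 for FAS, 921 for TNFSF10, 508 for FADD, 291 for CFLAR, 80.3 for TNFRSF10B and 28.1 for TNFRSF10A, in the same order. Both TRAIL receptor genes were thus the lowest detected on either length, and FAS mRNA per length was well above both. The long and short forms of c-FLIP and the isoforms of caspase-8 are not separated in a table of genes.

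**Figure D3:**
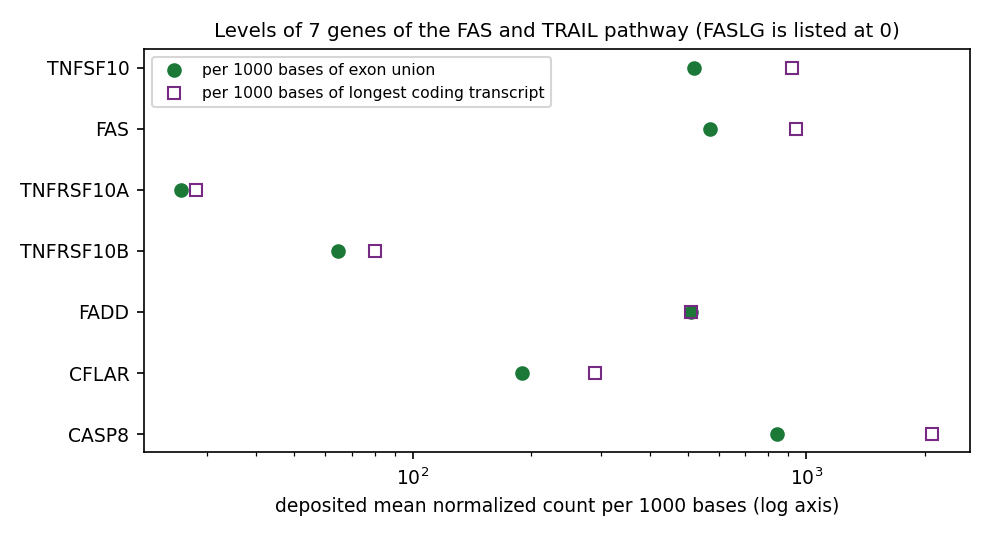
Deposited mean normalized count per 1000 bases (horizontal, log axis) of the 7 detected genes, by merged exons (filled circles) and by the longest coding transcript (open squares). CASP8 is highest and TNFRSF10A lowest on both, at 844 and 25.9 by merged exons.

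Of the 8 genes, CFLAR and CASP8 share a gene cluster on chromosome 2, and TNFRSF10A and TNFRSF10B share one on chromosome 8. CFLAR, CASP10 and CASP8 follow each other on the same strand, with 6193 bases between CFLAR and CASP10 and 4036 between CASP10 and CASP8. CASP10, a close relative of CASP8 that is also recruited by FADD, had a mean normalized count of 1514 and a log2 change of 0.04 (SE 0.06, adjusted p = 0.726), per the authors' deposited table. None of these 3 neighbours passed the test. Of 13 tested protein-coding genes from 300 kb before CFLAR to 300 kb after CASP8, 1 was higher (PPIL3) and 2 were lower (CLK1 and FAM126B), and CASP8, CASP10 and CFLAR were among the 10 that did not pass. The calls are set against 14.7% higher and 14.8% lower over all tested genes.

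On chromosome 8, TNFRSF10B and TNFRSF10A are 121272 bases apart on the same strand, with the decoy receptor gene TNFRSF10C between them. In the same 300 kb window, 7 protein-coding genes were tested, of which 1 was higher and 4 were lower, against 14.7% and 14.8% of all tested genes. TNFRSF10B was the one that rose. The lower genes were TNFRSF10A, RHOBTB2 at -1.48 (SE 0.29, adjusted p = 3.92e-06), ENTPD4 at -0.48 (SE 0.11, adjusted p = 8.22e-05) and CHMP7 at -0.40 (SE 0.11, adjusted p = 0.00166), per the authors' deposited table. R3HCC1 and LOXL2 did not pass. The window was chosen after the values were seen.

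**Figure D4:**
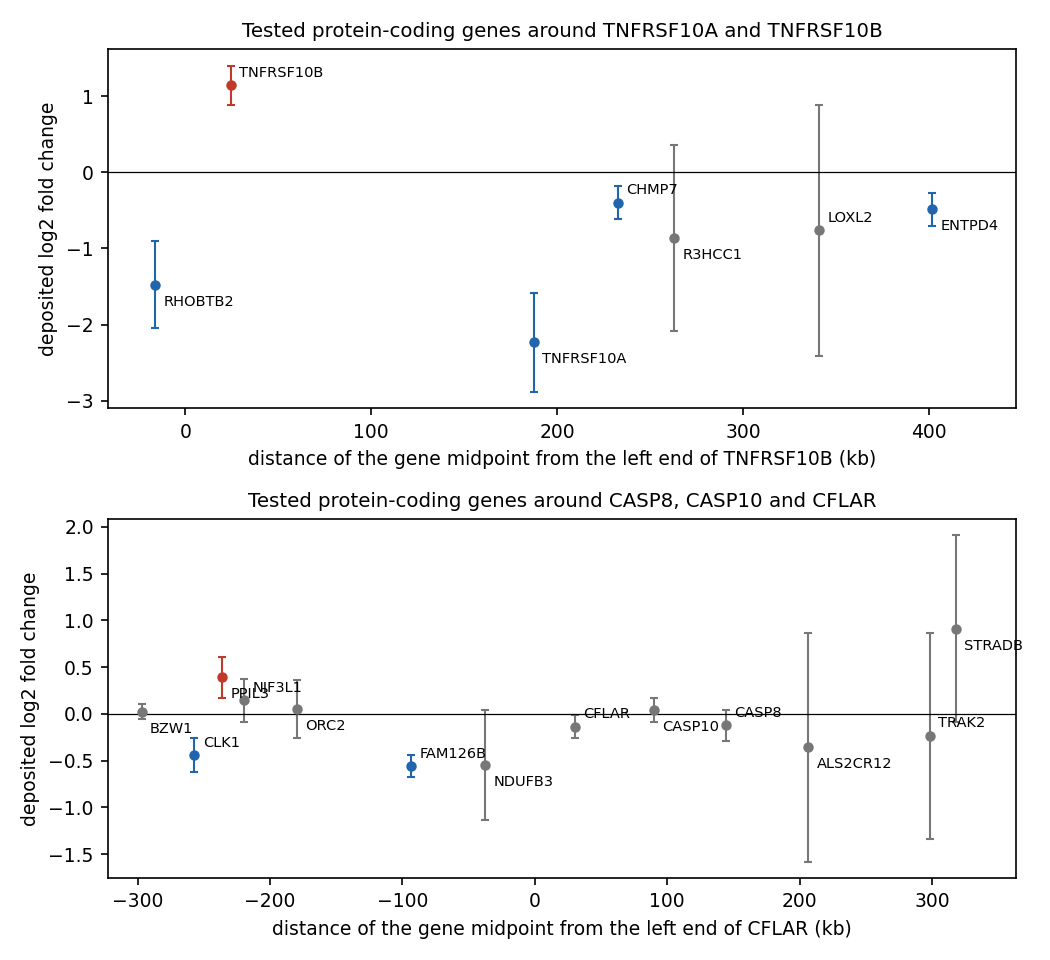
Log2 fold change (vertical, numerator over denominator group, bars for the 95% interval) of tested protein-coding genes by distance in kb (horizontal) from the left end of TNFRSF10B (top) or CFLAR (bottom), with higher calls in red, lower calls in blue and the rest grey. TNFRSF10B at 1.14 is the one red point of the top panel, and CFLAR, CASP10 and CASP8 lie near 0 in the bottom panel.

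Of 47 other genes of the pathway, 43 are in the table and 36 were tested, with 2 higher, 9 lower and 25 that did not pass. That is close to the 29.5% called over all tested genes, and the counts of single lists below stand beside the same background of 14.7% higher and 14.8% lower. Their median log2 fold change was -0.15, against 0.00 over all tested genes. Of the decoy receptors, which bind a ligand without signalling death, those found by name were not detected at a testable level. TNFRSF10C had a mean normalized count of 0.0586 and TNFRSF11B was listed at 0 in the authors' deposited table. TNFRSF10D and TNFRSF6B were not found by name, so their levels are not known. TNF and LTA, ligands of another death receptor, were not found by name either.

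Of the other death-domain receptors and their ligands, 3 of 6 in the table were tested. TNFRSF25, the DR3 receptor of lymphocytes, fell, with a log2 change of -1.36 (SE 0.28, adjusted p = 8.56e-06), per the authors' deposited table. Its ligand gene TNFSF15 was called higher at 5.35 (SE 2.18, adjusted p = 0.0481) from a mean normalized count of only 2.98 in the authors' deposited table, and lost the call when all genes with a p-value were adjusted (adjusted p = 0.0726). TNFRSF1A, the main TNF receptor, was at -0.28 (SE 0.12, adjusted p = 0.0631), per the authors' deposited table.

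Of the other caspases examined, 1 of 6 tested members was lower and 0 were higher, close to the 14.8% lower over all tested genes. CASP4, an inflammatory caspase, was at -0.48 (SE 0.18, adjusted p = 0.0345), per the authors' deposited table. That call was lost under 4 of 7 alternatives: against a 1.5-fold change, with errors scaled up to match the spread of the statistics of all tested genes, with every gene with a p-value adjusted (adjusted p = 0.0521) and at a threshold of 0.01. CASP1, CASP2, CASP6, CASP9 and CASP10 did not pass, CASP5 was not tested at a mean normalized count of 0.117, and CASP14, a skin caspase, was listed at 0 in the authors' deposited table.

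Links from caspase-8 to the mitochondrial route and its brakes had 3 of 6 tested members lower and 0 higher, against 14.8% lower over all tested genes. The list is small, and its means ran from 156 to 6277, with BID at 303. Calls were more common at higher means. Of tested genes within 2-fold of the mean, 34.4% were called around TNFRSF10B (333) and 57.5% around TNFSF10 (1799). BID, which caspase-8 cleaves to engage mitochondria, fell with a log2 change of -1.33 (SE 0.17, adjusted p = 3.96e-14), per the authors' deposited table. It was the only one of the 11 other pathway genes called that kept its call against a 1.5-fold change (adjusted p = 0.000333) and with widened errors (adjusted p = 0.00189). XIAP, a caspase inhibitor, was at -0.79 (SE 0.18, adjusted p = 5.09e-05) and APAF1, the scaffold of the apoptosome, at -0.18 (SE 0.06, adjusted p = 0.00528), per the authors' deposited table. CYCS, DIABLO and HTRA2 did not pass. DFFA, the inhibitor and chaperone of the caspase-activated nuclease, fell, with a log2 change of -0.91 (SE 0.20, adjusted p = 4.33e-05), per the authors' deposited table, and DFFB, the nuclease, did not pass.

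Partners of the receptor complexes and their ubiquitin regulators had 1 of 16 tested members higher and 1 lower, below the 29.5% called over all tested genes. PEA15, a death effector domain protein that binds FADD and caspase-8, was at 0.29 (SE 0.08, adjusted p = 0.00267), per the authors' deposited table. RIPK1, a kinase of TNF receptor and necroptosis complexes, was at -0.75 (SE 0.23, adjusted p = 0.00623), per the authors' deposited table. CYLD, a deubiquitinase of these complexes, was the most abundant of the list, with a mean normalized count of 11898 and a log2 change of -0.02 (SE 0.04, adjusted p = 0.771), per the authors' deposited table. Necroptosis genes, whose route caspase-8 restrains, had 2 of 3 members lower, against 14.8% of all tested genes: ZBP1, a nucleic acid sensor, at -1.75 (SE 0.44, adjusted p = 0.000523) and the kinase RIPK3 at -0.94 (SE 0.34, adjusted p = 0.0222), per the authors' deposited table. MLKL, the executor of necroptosis, was at 0.23 (SE 0.33, adjusted p = 0.682), per the authors' deposited table.

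**Figure D5:**
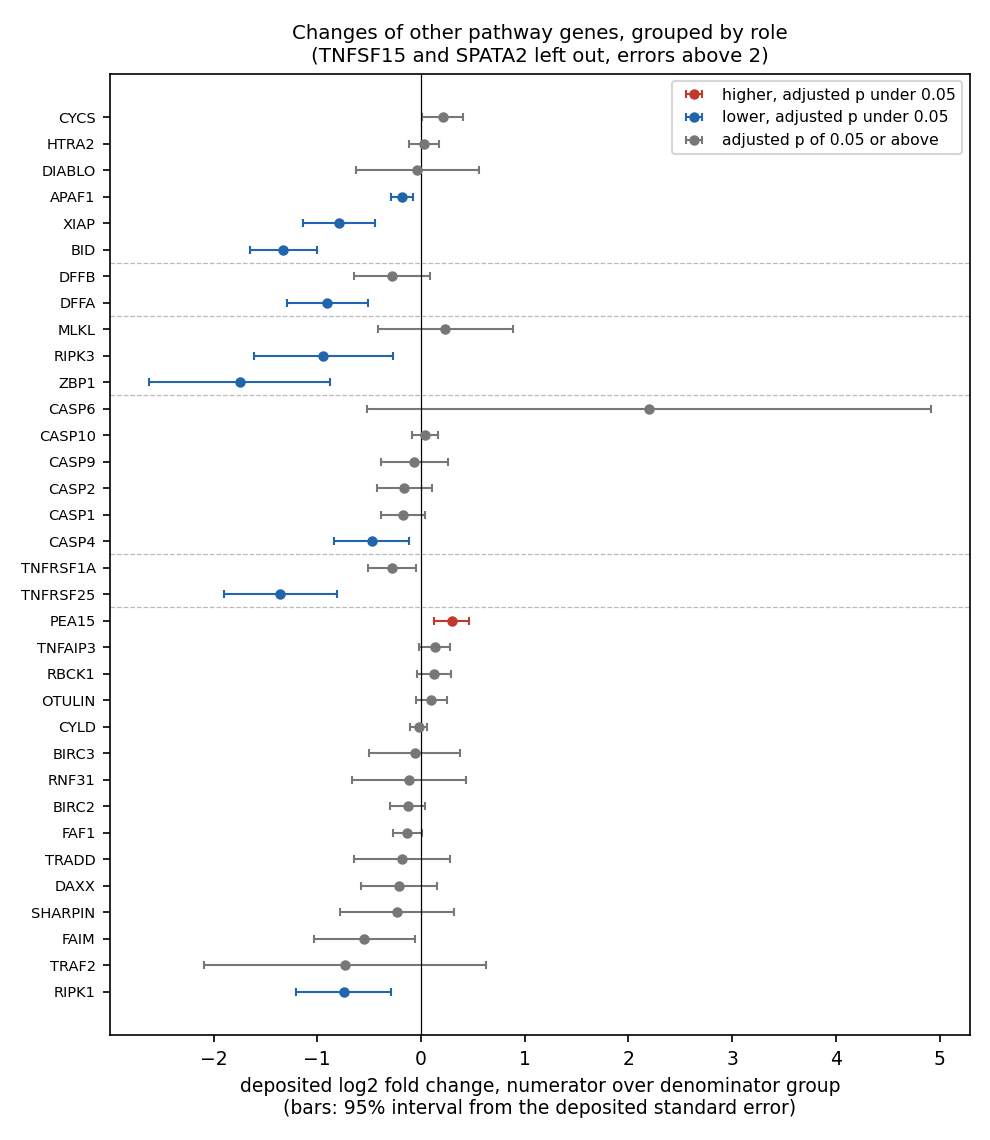
Log2 fold change (horizontal, numerator over denominator group, bars for the 95% interval) of 34 of the 36 tested other pathway genes, with dashed lines between lists; TNFSF15 and SPATA2 are left out, since their standard errors exceed 2. Blue points (lower) outnumber the single red point (PEA15, at 0.29), and BID at -1.33 is among the lowest.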

How the data were processed

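Libraries for RNA sequencing were prepared from total RNA using a SMARTER kit (per the labels' protocols). The submitters' processing notes name STAR, Salmon and hg38 and give no version. The deposited mean normalized count over all libraries is handled as a signal. The columns, per the file headers, are named as in a DESeq2 results table. The log2 fold change and its error are deposited on the log2 scale, the deposited statistic is a score, and the deposited p-value and adjusted p come with a Wald-type statistic. Which program and model were used, and in which direction, is not given in the sources used here. The statistic equalled fold change over error to within 4.23e-07, and the adjusted p equalled Benjamini-Hochberg adjustment over 13957 genes to within 3.66e-07. Genes with an adjusted p had means of 2.22 or more.

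The table holds no values per sample, so the depth of each library is unknown, no test on samples was run, and the authors' comparison was used as deposited, with a threshold of 0.05. Names matched 33483 genes by ID without version, and GENCODE 29 (GRCh38) matched 33582. Intervals are the fold change ± the normal 95% width of the deposited error. The 8 genes and all lists were chosen with earlier results of these data known. Beyond the 8 genes, CASP10, marker, neighbouring and overlapping genes and those that frame a list, up to 3 called genes per list and direction with the largest change were named. Some genes of the pathway are not reported here. Alternatives changed the hypothesis tested, the genes adjusted over, the errors, the centring and the threshold. They were tried on simulated statistics with few changed genes and with the deposited errors taken as true. There the errors needed almost no widening, against 2.03-fold here, so that step was not tested in a setting like these data. Python 3.11.15, numpy 2.4.6, pandas 2.3.3, scipy 1.17.1 and matplotlib 3.10.9 were used.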

Additional observations from a re-analysis of the deposited data

How the results depend on the processing

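The calls of TNFRSF10A and TNFRSF10B held under all 7 alternatives tried, and that of TNFSF10 under all but the test against a 1.5-fold change. With errors widened 2.03-fold, to match the spread of the deposited statistics, the adjusted p was 0.0146 for TNFSF10, 0.0128 for TNFRSF10A and 0.000533 for TNFRSF10B. FAS, FADD, CFLAR and CASP8 passed under none of them, the nearest being CFLAR at an adjusted p of 0.0595 when genes with means under 72.0 were dropped. Against a 1.5-fold change, 1 of the 8 genes was called lower, and of the other pathway genes 0 were called higher and 1 lower, with 330 of all tested genes higher and 323 lower. With widened errors, 0 of the other pathway genes were called higher and 1 lower, with 600 of all tested genes higher and 596 lower. The other pathway genes called higher numbered 1 with every gene with a p-value adjusted, 1 when genes with means under 72.0 were dropped and 1 at a threshold of 0.01. Of 19 genes retried, 11 lost a call when tested against a 1.5-fold change and 10 when errors were widened. At a threshold of 0.01, 3 did so, and 2 with every gene with a p-value adjusted. Centring moved changes by 0.01 and the other alternatives left them as deposited, so directions were not put to a test. Values per length by the longest coding transcript were tried after the data were seen. No paired analysis was possible because the table holds no values per sample, and for the same reason replicates were not left out in turn. The depth of the libraries is unknown, and of the called genes among the 8 TNFRSF10A had the lowest mean and the largest error (0.33).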

Other observations

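Genes beside FASLG were looked up after its value of 0 was seen. PRF1 and GZMB, proteins of cytotoxic granules that kill by another route, were present, the first with a mean normalized count of 3811 and the second with 1358, per the authors' deposited table. Other ligand genes of the TNF superfamily were detected, with TNFSF14 at 1228, TNFSF8 at 596, CD40LG at 449 and CD70 at 272 in the authors' deposited table. Low means also stood beside high ones elsewhere. CD5, a surface protein of T cells, was at 1.87 beside CD3E at 13003, and ACTB, the main cytoplasmic actin, at 553 beside B2M at 78873, all in the authors' deposited table. Whether the 0 of FASLG marks an absent mRNA was not tested.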
